A study of Homo sapiens with 4 samples.

Results

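The long non-coding and antisense RNAs of irradiated and untreated U-2 OS cells were examined here, led by LINC00520. Members were the genes whose symbol begins with LINC and a digit or ends in -AS and a digit, together with AL138828.1, PURPL and NEAT1, which were added by name, provided that at least 100 counts were summed over all cells of the 4 libraries. The rule gave 311 members of the 36601 genes listed, of which 133 carried a LINC symbol and 175 an antisense symbol. A minimum of 100 counts was reached by 12441 genes in all, and of 3327 genes that fitted by symbol or name 1949 had any count. The minimum used the measured counts, so RAB11B-AS1 and KIF9-AS1 entered with 100 counts each, whereas LINC00882 and LINC01096 stayed out with 98 each. Because LINC00520, AL138828.1, PURPL and NEAT1 were named with earlier results of these data known, their IR against UT values are given as a description without a p-value.

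U-2 OS is an osteosarcoma line of human origin that keeps functional p53. Cultures received ionizing radiation at 4 Gy (IR) or no treatment (UT), with 1 IR and 1 UT library from each of 2 experiments. The labels differ on the time after irradiation, 48 h in the design and 24 h in the treatment protocol, and the study's methods give 48 h. Single cells were sorted into wells and sequenced by SORT-seq, which marks the 3′ ends of polyadenylated RNA with a barcode for the cell and an identifier for the molecule (UMI), so that transcripts without a poly(A) tail are seen poorly or not at all.

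Long non-coding RNAs are transcripts longer than most small RNAs that encode no known protein. Symbols beginning with LINC are given to intergenic loci, and the ending -AS marks a transcript read from the strand opposite a named gene. After DNA damage the transcription factor p53 activates many genes, among them CDKN1A, which encodes the cyclin-dependent kinase inhibitor p21, and a set of long non-coding RNAs. NEAT1, the scaffold of nuclear bodies called paraspeckles, and PURPL, an RNA reported to hold down p53 levels in human colorectal cancer cells, both belong to that set.

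The IR libraries held 247 and 248 cells and the UT libraries 358 and 367 cells, with total gene counts from 5736339 to 6810079. The median cell held 20181 and 22035 counts in IR and 15662 and 17627 in UT. Of the cell barcodes 161 of 376 occurred in all 4 libraries, since a plate carries a fixed set. Of 10 mesenchymal and osteoblast genes listed, 8 were abundant enough to be tested, and VIM, SPARC and RUNX2 were present in every library. Of 3 hepatocyte and erythroid genes listed, the globin genes HBB and HBA1 were at 0. That list summed to 0.174 and 0.323 CPM in IR and to 0 in UT. Of 4 epithelial genes listed, 1 was abundant enough to be tested, and the list summed to between 15.5 and 18.4 CPM per library. PTPRC, a leukocyte gene, had 0.872 and 3.56 CPM in IR and 0.511 and 3.38 CPM in UT, so it followed the experiment and not the treatment. As a check of the treatment, 15 of 29 p53 target genes tested rose and none fell by edgeR's quasi-likelihood test on the summed counts (Benjamini-Hochberg adjusted p under 0.05 over 14647 genes, with 0 falls also at an unadjusted p under 0.05 and by DESeq2), with a median log2 fold change of 1.16. This list was drawn up with earlier results of these data known. Over all 14647 genes tested 1.63% rose and 0.847% fell.

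The members together took a larger share of the counts in IR, 0.938% and 0.896%, than in UT, 0.749% and 0.747%. NEAT1 alone made up 20.7% and 20.9% of these counts in IR and 16.9% and 17.2% in UT. Without NEAT1 the shares were 0.743% and 0.708% in IR and 0.622% and 0.618% in UT. The median cell had at least 1 UMI of 87 and 86.5 members in IR and of 65 and 69 in UT, though IR cells also held more counts in all. Members were scarce, with a median of 10.9 CPM over the 4 libraries against 33.1 CPM for all genes with at least 100 counts. A level of 100 CPM was exceeded by 8 members, and 221 were below 20 CPM.

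LINC00520 was the member with the widest gap between IR and UT. It stood at 102.5 and 79.4 CPM in the IR libraries of experiments 1 and 2 and at 5.97 and 3.82 CPM in the UT libraries. The lowest IR library thus lay far above the highest UT library, with a fitted log2 fold change of 4.15 ± 0.28 (SE, n = 2 each). LINC00520 (ENSG00000258791) lies on the minus strand of chromosome 14 at 55781132 to 55796731 (GRCh38, GENCODE 44), with 5 merged exons of 3482 bases in all. The nearest protein-coding gene is KTN1, 79606 bases away, which encodes the kinesin-anchoring protein kinectin. KTN1 had a log2 fold change of -0.31 in IR against UT, with an adjusted p of 0.335 by edgeR, or 0.00317 with the experiment as a block.

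The same description holds for AL138828.1, which GENCODE 44 names PDE7B-AS1, a transcript on chromosome 6 from 135991936 to 136225751 that overlaps the cyclic nucleotide phosphodiesterase gene PDE7B on the opposite strand. It stood at 43.8 and 33.9 CPM in IR and 3.58 and 3.52 CPM in UT. Its fitted log2 fold change was 3.37 ± 0.25 (SE, n = 2 each), and the groups were well apart. It had fewer than 50 counts in the UT libraries together and reached the minimum of 100 through its level in IR.

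PURPL had 87.5 and 82.3 CPM in IR against 38.7 and 36.4 CPM in UT, a log2 difference of 1.10 ± 0.16 (SE, n = 2 each). NEAT1, the most abundant member, had 1947 and 1874 CPM in IR and 1267 and 1286 CPM in UT, a log2 difference of 0.50 ± 0.15 (SE, n = 2 each). In both genes the IR libraries lay above the UT libraries. NEAT1 was the only member close to the largest value that any gene reached in a cell (138), with means of 45.2 and 46.7 counts per cell in IR and 20.8 and 23.9 in UT. The part of that limit in its difference was not tested.

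The start of PURPL is shown because it was the only one of 211 members matched in the RefSeq promoter table (258 promoters from 250 bases before to 50 after an annotated start, GRCh38.p14) with a promoter that held adjacent matches to the p53 decamer, the motif whose paired copies form a p53 response element. NECTIN3-AS1, an antisense RNA that rose in IR, is set beside it with a single match and was picked after its values were seen. The motif reads the same on both strands, and capitals mark the matches, which begin 127 and 117 bases before the start of PURPL at chr5:27472042-27472341 (plus strand) and 210 bases before that of NECTIN3-AS1 at chr3:111069910-111070209 (minus strand).
PURPL: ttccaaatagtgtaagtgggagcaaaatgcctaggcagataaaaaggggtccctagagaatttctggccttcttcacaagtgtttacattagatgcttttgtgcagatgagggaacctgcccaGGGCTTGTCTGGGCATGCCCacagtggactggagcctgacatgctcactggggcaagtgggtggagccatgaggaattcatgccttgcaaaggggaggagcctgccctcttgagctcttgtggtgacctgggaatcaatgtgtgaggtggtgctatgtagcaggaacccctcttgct
NECTIN3-AS1: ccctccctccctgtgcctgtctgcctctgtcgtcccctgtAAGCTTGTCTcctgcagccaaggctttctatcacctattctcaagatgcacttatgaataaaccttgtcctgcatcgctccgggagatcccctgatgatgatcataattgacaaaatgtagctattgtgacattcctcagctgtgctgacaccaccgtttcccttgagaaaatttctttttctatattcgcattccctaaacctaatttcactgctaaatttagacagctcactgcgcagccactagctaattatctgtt
At least 1 match was found in 21 of the 258 member promoters (8.14%), against 6.63% of 35116 promoters in the table. Of these 21 promoters 19 belonged to members not called without the block, as did 250 of all 258. PSMA3-AS1 and PXN-AS1, which also hold a match, were lower in IR. Whether matches and changes in level go together was not tested. Pairs of copies, counted whether next to each other or a short gap apart, were found in 10 of the 35116 (0.0285%). LINC00520, AL138828.1, NEAT1, LINC01164 and FLG-AS1 were not in the promoter table, so their starts were not searched. The matches are a description of the sequence, not of binding.

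Of the 308 members chosen by symbol and abundance, LINC00520 was set aside because it was named with its values known, which left 307; the planned count over all 308 was 11 rises and 2 falls. Of the 307, 10 rose and 2 fell in IR against UT by edgeR with group as the only term. The rises came to 3.26% of these members, where 1.63% of all 14647 genes tested and 1.80% of those with at least 100 counts rose. The falls came to 0.651%, where 0.847% of all genes tested and 0.940% of those with at least 100 counts fell. With the experiment as a block, which the shared experiment number allows, 55 rose (17.9%) and 25 fell (8.14%). Over all genes tested 14.3% rose and 12.9% fell with the block. Both IR libraries lay above both UT libraries for 117 members (38.1%, against 30.7% of all genes tested and 30.6% of those with at least 100 counts) and below them for 45 (14.7%, against 18.5% and 18.8%). The median log2 fold change was 0.07 over these members and -0.003 over all genes tested, and 212 members were within 0.5 of 0. A further 30 members had under 50 counts in 1 of the groups. Some of them reached the minimum of 100 mainly through the group where they are high. Others lay near the minimum with similar groups, such as KIF9-AS1 with 22 and 32 counts in IR and 25 and 21 in UT. Both of these sets of members were chosen after seeing the data. Among the remaining 277, 9 rose (3.25%) and 2 fell (0.722%), or 52 (18.8%) and 20 (7.22%) with the block.

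Of 132 LINC members, again without LINC00520, 8 rose (6.06%) and 2 fell (1.52%), with a median log2 fold change of 0.14. Of 175 antisense members 2 rose (1.14%) and none fell, with a median of 0.04 (9 had an unadjusted p under 0.05 and a lower level in IR, and DESeq2 called 1 of the antisense members lower). Over all genes tested 1.63% rose and 0.847% fell. With the block, 35 LINC members rose (26.5%) and 9 fell (6.82%), and 20 antisense members rose (11.4%) and 16 fell (9.14%), where 14.3% of all genes tested rose and 12.9% fell. Whether the classes differ from each other or from all genes was not tested.

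**Figure D1:**
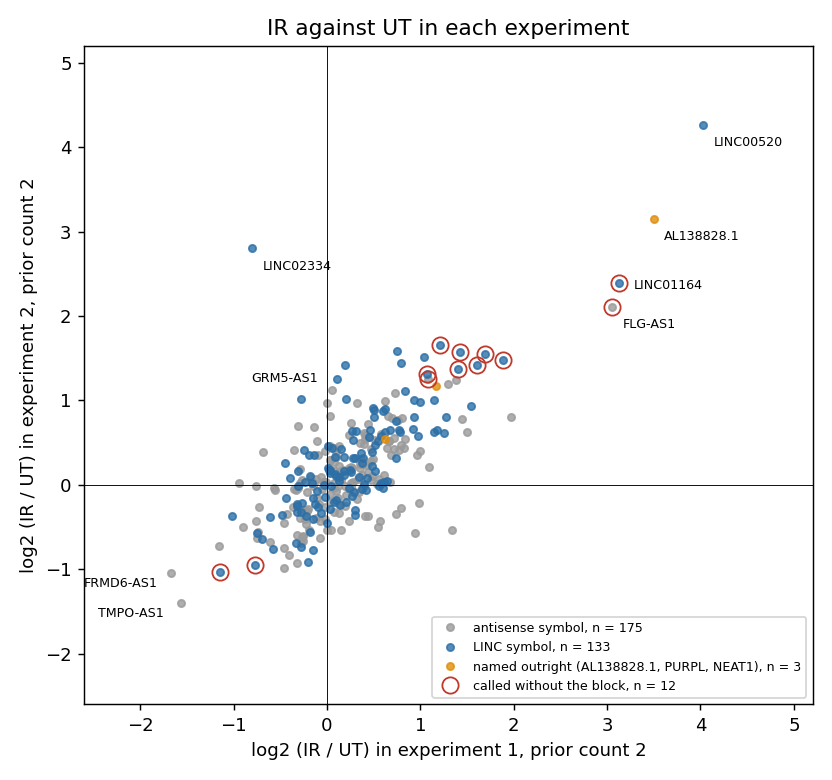
Each point is 1 of the 311 members, placed by its log2 ratio of IR to UT in experiment 1 (x axis) and experiment 2 (y axis), with a prior count of 2; rings mark the 12 members called without the block, LINC00520 aside. LINC00520, AL138828.1, LINC01164 and FLG-AS1 lay highest in both experiments, LINC02334 had opposite signs, and GRM5-AS1 had 0 counts in experiment 1.

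LINC01164 and FLG-AS1 had the largest log2 fold changes among these 10 rises. LINC01164, an intergenic transcript of chromosome 10, stood at 30.9 and 28.3 CPM in IR against 3.24 and 5.14 CPM in UT (log2 fold change 2.72 ± 0.27 SE, adjusted p = 0.0152 by edgeR). FLG-AS1, which runs along the filaggrin gene cluster of chromosome 1 from 152168125 to 152445456 and overlaps HRNR on the opposite strand, had 49.0 and 38.5 CPM in IR against 5.62 and 8.66 CPM in UT (2.52 ± 0.26, adjusted p = 0.0155 by edgeR). FLG, the gene in its symbol, encodes a barrier protein of the skin and was too low to be tested. In both RNAs the IR libraries were over 4 times any UT library.

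LINC02055, a long locus of chromosome 8, was the most abundant of the RNAs that rose, at 98.2 and 114.5 CPM in IR against 36.8 and 43.9 CPM in UT (1.32 ± 0.17, adjusted p = 0.0214 by edgeR). LINC02381, which overlaps the uracil DNA glycosylase gene SMUG1 on the opposite strand, had 44.6 and 46.4 CPM in IR and 21.1 and 18.5 CPM in UT. NECTIN3-AS1, an antisense partner of the cell adhesion gene NECTIN3, had 69.4 and 65.5 CPM in IR and 32.7 and 27.2 CPM in UT (log2 fold change 1.09, adjusted p = 0.0366 by edgeR). It lay outside the naming rule and is named after its values were seen. NECTIN3 itself had a log2 fold change of 0.07 with an adjusted p of 0.881.

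The remaining rises were of rarer RNAs. LINC01151 had 21.1 and 14.9 CPM in IR against 5.45 and 5.14 CPM in UT, and LINC00707 had 19.5 and 13.9 CPM in IR against 5.79 and 4.55 CPM in UT. LINC01260 had 17.3 and 12.8 CPM in IR against 5.45 and 4.55 CPM in UT. LINC01588 had 11.5 and 14.5 CPM in IR against 4.77 and 4.41 CPM in UT. These 4 had fitted log2 fold changes from 1.42 to 1.68 and adjusted p-values from 0.0382 to 0.0478 by edgeR. In each the IR libraries stood above both UT libraries. LINC01524 had 9.24 and 9.38 CPM in IR against 3.24 and 2.94 CPM in UT. With fewer than 50 UT counts it reached the minimum through its level in IR, so its values are a description.

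LINC02840 and LINC01515 were the falls. LINC02840, which overlaps the neuropeptide gene VIP on the opposite strand of chromosome 6, had 10.1 and 11.2 CPM in IR against 22.8 and 23.2 CPM in UT (-1.19 ± 0.20, adjusted p = 0.0389 by edgeR). LINC01515 had 16.7 and 15.8 CPM in IR against 28.8 and 31.0 CPM in UT (-0.95 ± 0.18, adjusted p = 0.0477 by edgeR). The replicates of each RNA lay close together and the groups did not overlap.

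LINC01164, FLG-AS1 and LINC02055 were the 3 of the 12 called members that passed the threshold in each of the 4 fits that left out 1 library, and all 12 kept their direction. Each of these fits leaves 1 library in an arm, which is assumed to vary like the other group. The other 9 lost the call without UT experiment 2 and likewise without IR experiment 1. Without UT experiment 1, 6 lost it, and without IR experiment 2, 6 that were not all the same members. The falls passed in none of these fits. All 12 were also called with the block and 9 of them by DESeq2.

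**Figure D2:**
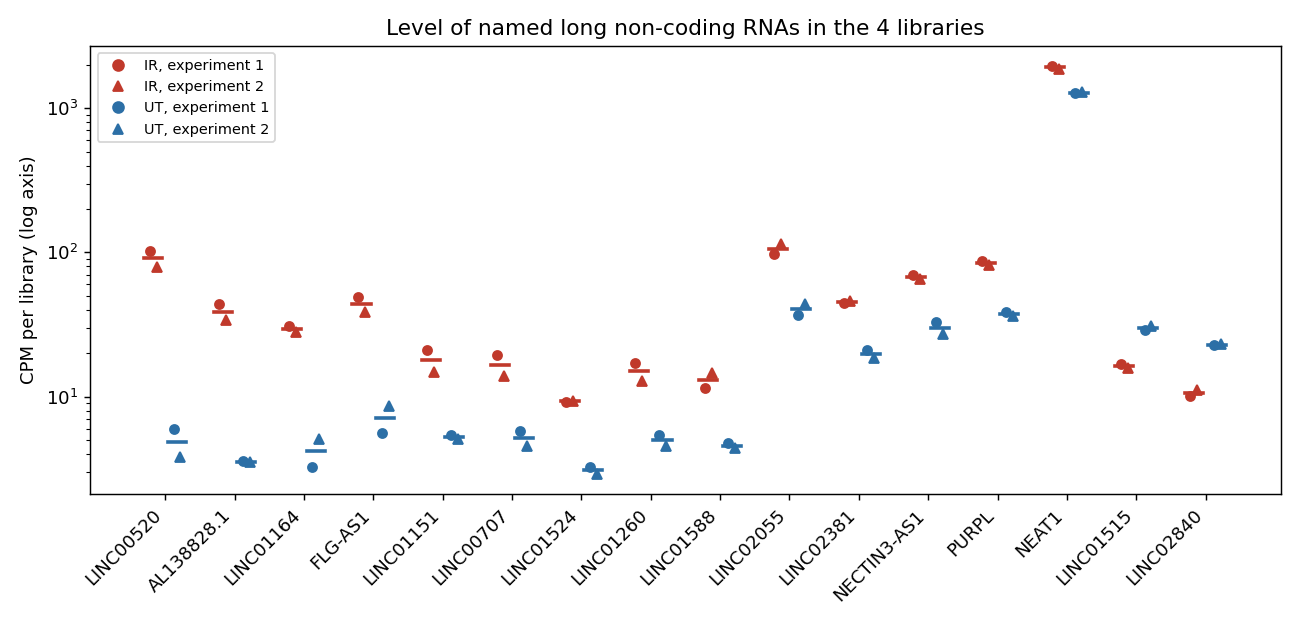
CPM of 16 members in each library on a log axis, with IR in red and UT in blue, circles for experiment 1 and triangles for experiment 2, and bars at the mean of 2 libraries. LINC00520 stands at 102.5 and 79.4 CPM in IR and 5.97 and 3.82 CPM in UT, and LINC01515 and LINC02840 are lower in IR.

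More members were called once the experiment was a block. TCERG1L-AS1 had 17.6 and 10.5 CPM in IR and 4.26 and 5.87 CPM in UT (log2 fold change 1.34 ± 0.26 with the block, adjusted p = 2.8e-05 by edgeR, and 0.0891 without it). UNC5B-AS1, partner of the netrin receptor gene UNC5B, had 25.5 and 32.2 CPM in IR against 9.54 and 13.4 CPM in UT. It missed the threshold by little without the block, with an adjusted p of 0.0501 by edgeR. PPP1R14B-AS1 had 57.7 and 40.3 CPM in IR and 23.3 and 17.5 CPM in UT, with an adjusted p of 0.0618 without the block.

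Among the members that fell with the block were MSC-AS1, LINC00173, LINC00997, LINC00909 and PPP3CB-AS1, with log2 fold changes from -0.78 to -0.75. MSC-AS1 had 14.8 and 14.9 CPM in IR against 25.1 and 23.2 CPM in UT. The adjusted p-values of these 5 without the block were between 0.0842 and 0.224 by edgeR. LINC00511 had 55.3 and 88.4 CPM in IR against 112.3 and 114.0 CPM in UT, so its IR libraries differed more from each other than its UT libraries.

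The 10 most abundant members did not move together. After NEAT1, LINC02802 had 409.5 and 423.4 CPM in IR against 288.2 and 242.6 CPM in UT, and LINC00958 had 247.7 and 227.9 CPM in IR against 160.5 and 147.6 CPM in UT. Both rose only with the block. CCDC144NL-AS1 had 181.8 and 192.7 CPM in IR against 302.8 and 284.3 CPM in UT, a fall with the block (adjusted p = 5.7e-10 by edgeR) that had an adjusted p of 0.0563 without it. FGD5-AS1 had a log2 fold change of -0.34 and was likewise called only with the block. LINC00662, OIP5-AS1, an RNA known in vertebrates for its site for the microRNA miR-7, GABPB1-AS1 and LINC00963 had log2 fold changes from -0.14 to -0.08, with IR and UT libraries overlapping. LINC02802 lies in a stretch of chromosome 1 rich in copied sequence, and reads shared between genes had been discarded, so its level is uncertain.

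Of 39 long non-coding RNAs with other kinds of name, listed with earlier results known, 36 were tested. Of these 2 rose (5.56%) and none fell by edgeR with group only, where 1.63% of all genes tested rose and 0.847% fell. DESeq2 gave the same counts, and 2 of the list had a lower level at an unadjusted p under 0.05. With the block 10 rose (27.8%) and 5 fell (13.9%), where 14.3% of all genes tested rose and 12.9% fell. PVT1, transcribed next to the MYC oncogene, had 157.3 and 160.8 CPM in IR against 79.6 and 76.5 CPM in UT. MIR222HG, the host transcript of miR-221 and miR-222, had 85.8 and 92.3 CPM in IR against 42.6 and 46.7 CPM in UT. MIR100HG and MIAT had log2 fold changes of 0.76 and -0.74, with adjusted p-values of 0.0730 and 0.0763. The list's median was 0.06.

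Antisense RNAs and the genes they are named for were then set side by side. The partner gene was tested for 139 of the 175 antisense members, and GENCODE placed both genes of 138 pairs on opposite strands, with overlapping loci in 116. How reads were assigned to strand is not given in the sources used here, so where the loci overlap the reads of a gene and its antisense partner cannot be told apart. The log2 fold changes of the pairs correlated weakly across pairs (Pearson's r = 0.124, Spearman's rho = 0.124, 139 pairs from the same 4 libraries, given as a description).

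In 14 pairs both genes were called with the block, 8 in the same direction and 6 in opposite directions. The antisense RNA was called with the block in 26 of the 139 pairs and the partner gene in 41 (29.5%), where 27.2% of all genes tested were called in either direction. Whether the calls of a pair go together was not tested. FRMD6-AS1 had 3.14 and 4.04 CPM in IR against 10.7 and 8.66 CPM in UT, a log2 fold change of -1.50. FRMD6, which encodes a FERM domain protein of the Hippo pathway, went the other way, with 572.2 and 436.0 CPM in IR against 204.3 and 216.3 CPM in UT. PXN-AS1 and PXN, the gene of the focal adhesion protein paxillin, had log2 fold changes of -1.03 and 0.57. FRMD6-AS1 and PXN-AS1 each had under 50 counts in IR and reached the minimum through UT, where they are high, so their lower level in IR is a description.

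The reverse was seen for PPP1R14B-AS1, VIM-AS1, GAS6-AS1 and HDAC2-AS2, with log2 fold changes of 1.19, 0.98, 0.70 and 0.56. Their partner genes had -0.31, -0.24, -0.42 and -0.39. These were PPP1R14B, a phosphatase inhibitor gene, VIM, which encodes vimentin, GAS6, a receptor ligand gene, and HDAC2, a histone deacetylase gene. The IR and UT libraries of PPP1R14B, VIM and GAS6 overlapped, though IR was lower within each experiment. PPP1R14B had 98.2 and 249.6 CPM in IR and 127.8 and 281.5 CPM in UT. Without the block VIM and HDAC2 had adjusted p-values of 0.522 and 0.210 by edgeR. TMPO-AS1 and TMPO, the gene of a nuclear lamina protein, had log2 fold changes of -1.67 and -1.06, and TMPO-AS1, with under 50 counts in IR, also reached the minimum through UT and is described only. PAX8-AS1 and the transcription factor gene PAX8 both rose, by 0.87 and 2.005 on the log2 scale. PAX8 was rare, at 2.44 and 4.36 CPM in IR and 0.852 and 0.734 CPM in UT.

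**Figure D3:**
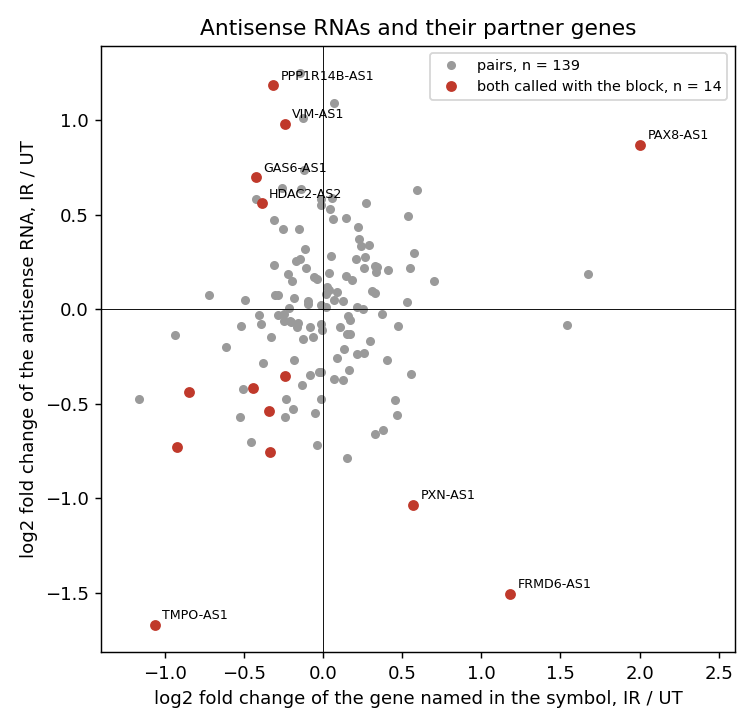
Log2 fold change in IR against UT of 139 antisense RNAs (y axis) and of the gene in their symbol (x axis), without the block. Red points are the 14 pairs in which both genes were called with the block, 8 in the quadrants of same direction and 6 in those of opposite direction.

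Levels per library do not show how an RNA is spread over cells, so the share of cells with at least 1 UMI was taken after thinning each cell to 8000 UMIs, which left 231 and 232 IR cells and 333 and 356 UT cells and dropped 16, 16, 25 and 11 shallower ones. LINC00520 was detected in 24.7% and 24.1% of thinned IR cells (exact binomial 95% intervals 19.3 to 30.8 and 18.8 to 30.2, counting error only) and in 2.40% and 1.97% of UT cells (1.04 to 4.68 and 0.794 to 4.01). Without thinning the shares were 38.5% and 41.9% in IR and 3.35% and 4.36% in UT. PTPRC, a leukocyte gene that these cells should lack, was detected in 0.866% and 2.59% of thinned IR cells and 0.601% and 3.65% of UT cells, in cells of the same depth. The LINC00520 share in UT experiment 2 was below the PTPRC share, and that of UT experiment 1 was above it, with intervals that overlap. Whether its UT counts are background was not tested.

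LINC00520 was unevenly spread over irradiated cells. With means of 0.688 and 0.625 thinned UMIs per IR cell, an even spread (Poisson) would have put it in 49.8% and 46.5% of cells. Its variance over mean (Fano factor, 1 for an even spread) was 4.48 and 5.13 in IR. In UT it was 3.34 and 1.23, from 8 and 7 thinned cells with the RNA. The 10% of cells with most held 77.2% and 69.0% of its counts, and single IR cells reached 61 and 38 UMIs. No UMI was found in 75.3% and 75.9% of thinned IR cells, whereas 5 or more were found in 4.33% and 3.45%.

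**Figure D4:**
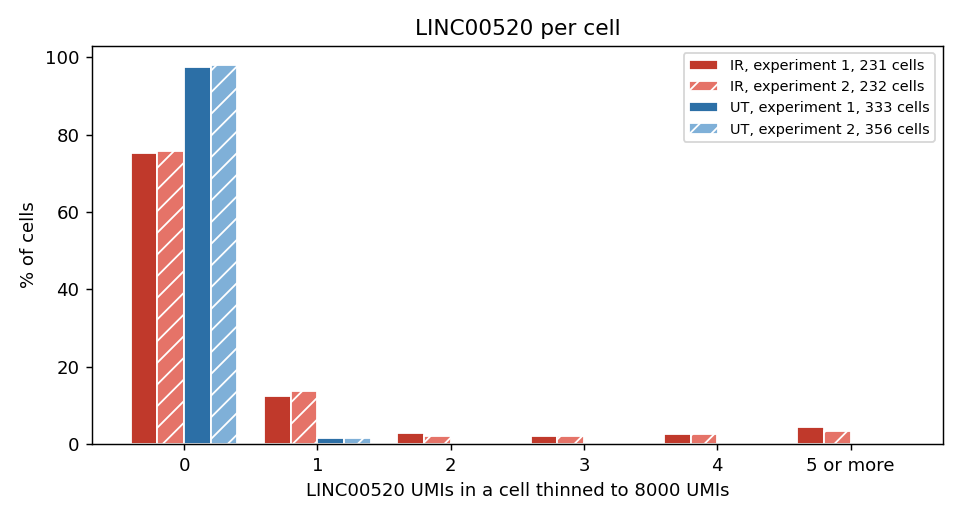
Share of cells (y axis, %) by the number of LINC00520 UMIs after thinning to 8000 UMIs (x axis), in IR (red) and UT (blue) cells of each experiment. In IR 75.3% and 75.9% of cells had 0, against 97.6% and 98.0% of UT cells, and cells with 5 or more made up 4.33% and 3.45% in IR.

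LINC01164 was also unevenly spread, with Fano factors of 4.20 and 5.22 in IR. In UT they were 3.58 and 7.87, from 4 thinned cells with the RNA in each library. It was detected in 7.79% and 7.76% of thinned IR cells against 1.20% and 1.12% of UT cells, where its IR means would have put it in 23.5% and 20.1% of cells. The 10% of IR cells with most held 98.3% and 94.9% of its counts, in an RNA that 11.3% and 13.7% of IR cells held at all without thinning. FLG-AS1 was detected in 19.9% and 18.5% of IR cells and 3.90% and 5.90% of UT cells. An even spread would have given 24.2% and 19.4% in IR, where its Fano factors were 1.95 and 1.11. Thinned IR cells with FLG-AS1 had median total counts of 27131 and 28480, against 20503 and 21811 in those without. AL138828.1 was found in 22.1% and 19.4% of IR cells and in 1.502% and 3.65% of UT cells. The PTPRC shares in UT were 0.601% and 3.65%, so the UT share of AL138828.1 in experiment 2 did not exceed that of PTPRC. Whether these UT counts are background was not tested. PURPL was found in 43.3% and 42.7% of IR cells and 22.5% and 19.9% of UT cells, and NEAT1 in at least 98.8% of the cells of every library.

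Among 130 members with a mean of at least 0.1 thinned UMIs per cell in both IR libraries, the median Fano factor was 1.13 and 1.12, and 108 were under 1.5 in both. LINC00520, LINC01164, IGFL2-AS1 and NEAT1 were the 4 above 2 in both. IGFL2-AS1 had 2.19 and 5.79 in IR and 2.15 and 5.32 in UT, so its spread followed the experiment, and NEAT1 had 8.85 and 9.87 in IR and 10.4 and 9.44 in UT.

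LINC00520 and AL138828.1 were then compared within cells. In IR experiment 1, 36.8% of 57 cells with LINC00520 had AL138828.1, against 17.2% of the cells without it, and in IR experiment 2 these shares were 42.9% of 56 cells and 11.9%. GDF15, which encodes a stress cytokine induced by p53, was found in 61.4% and 66.1% of the cells with LINC00520 and in 37.4% and 34.7% of those without. PURPL was found in nearly equal shares, 43.9% and 42.9% of cells with LINC00520 and 43.1% and 42.6% of those without. Median total counts were 21629 and 23222 in cells with LINC00520 and 21189 and 22836 in cells without. Cells of 1 library are not replicates, so these shares are given as a description and were not tested.

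Correlation with CDKN1A across cells was taken as Spearman's rho of counts per 10000 within each library, over 247 and 248 IR cells that share a library and differ in depth, and is given with no p-value. CDKN1A itself stood at 958.9 and 914.3 CPM in IR and 323.8 and 277.4 CPM in UT. Of 155 members detected in at least 20% of the cells of both IR libraries, 8 had a rho over 0.2 in both, 1 was under -0.1 in both and 68 were within 0.1 of 0 in both. The median rho was 0.07 and 0.08 in IR and 0.04 and 0.04 in UT.

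NEAT1 had the highest rho, 0.475 and 0.423 in IR, and nearly as high a value in UT, 0.399 and 0.427. IGFL2-AS1 had 0.325 and 0.303 in IR, PURPL 0.321 and 0.298, UNC5B-AS1 0.270 and 0.323 and LINC00862 0.257 and 0.237. PURPL had 0.293 and 0.298 in UT, and IGFL2-AS1 had 0.260 and 0.267. AL138828.1 had 0.227 and 0.238 in IR, and LINC00520 had 0.224 and 0.124. After thinning to 8000 UMIs, which discards UMIs of both genes, rho in IR was 0.370 and 0.414 for NEAT1. It was 0.154 and 0.272 for PURPL and 0.158 and 0.0659 for LINC00520. With total counts per cell held constant instead (partial rho), the values stayed near the first ones. They were 0.482 and 0.446 for NEAT1, 0.319 and 0.292 for PURPL and 0.221 and 0.114 for LINC00520. So the rho of LINC00520 was below that of NEAT1 in both libraries in each form, a difference that was not tested. The 2 RNAs are not on a like footing here. Without thinning LINC00520 was detected in 38.5% and 41.9% of IR cells and NEAT1 in 99.6% and 99.2%, and many cells tied at 0 limit a rank correlation.

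The lowest values were small. CCDC144NL-AS1 had -0.163 and 0.01, LINC01116 -0.115 and -0.169, LOXL1-AS1 -0.132 and -0.05, PRKCQ-AS1 -0.105 and -0.07 and LINC01515 -0.05 and -0.109. Of these, LINC01116 was the only one below -0.1 in both libraries.

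Total counts per cell had a rho of 0.04 and 0.11 with CDKN1A in IR. Cell cycle position moved with the same RNAs, taken as rho with the summed level of 20 G2 and M phase genes in IR. NEAT1 had a rho of -0.588 and -0.520 and CDKN1A one of -0.381 and -0.378. LINC00520 had -0.253 and -0.319, PURPL -0.276 and -0.301 and AL138828.1 -0.300 and -0.271. For LINC00520 these were larger in size than its rho with CDKN1A. These 20 genes summed to 2157 and 2423 CPM in IR and 3699 and 3753 CPM in UT. By edgeR 6 of them fell, where 0.847% of all genes tested fell. The part of the cell cycle in the levels and correlations above was not tested.

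**Figure D5:**
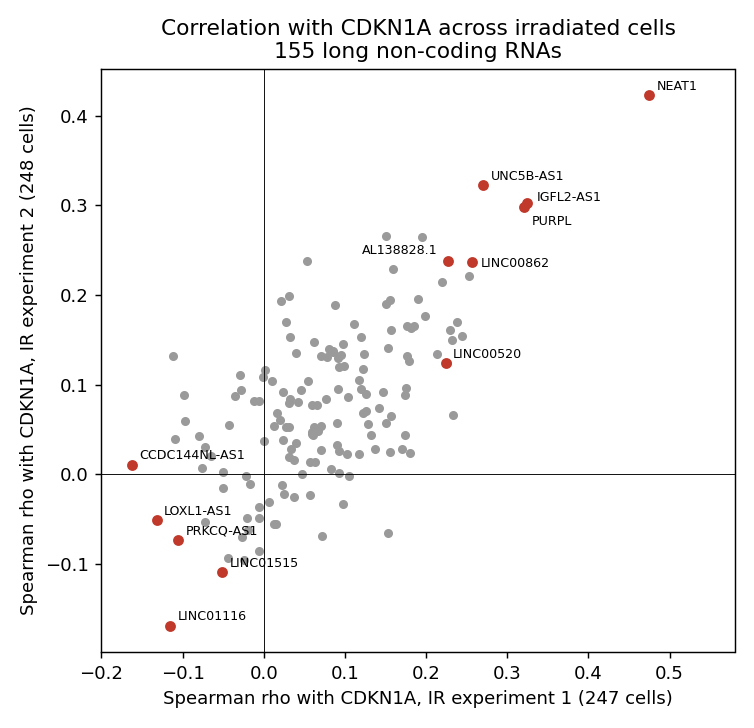
Spearman's rho with CDKN1A across the 247 cells of IR experiment 1 (x axis) and the 248 cells of IR experiment 2 (y axis) for 155 members, with those named in the text in red. NEAT1 lies highest at 0.475 and 0.423, and LINC00520 lies at 0.224 and 0.124.

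Cells were also split by their own CDKN1A level. In IR, NEAT1 had 2736 and 2524 CPM in the 25% of thinned cells with most CDKN1A and 1227 and 1116 CPM in the 25% with least. PURPL had 137.1 and 109.2 CPM in the first set and 50.6 and 58.6 CPM in the second. LINC00520 had 198.6 CPM in the cells with most and 42.2 CPM in those with least in experiment 1, but 75.8 and 49.6 CPM in experiment 2. Within UT, LINC00520 had 16.8 and 7.03 CPM in the cells with most and 0.722 and 1.24 CPM in those with least. AL138828.1 had 10.5 and 7.62 CPM against 0 and 1.85 CPM in these UT sets. LINC01164 in IR had 81.6 and 52.5 CPM in the cells with most and 4.60 and 3.01 CPM in those with least. This gap rests on few cells. LINC01164 was detected in 17.5% of 57 and 13.8% of 58 thinned cells with most CDKN1A and in 1.75% and 3.45% of those with least. Its rho with CDKN1A was 0.215 and 0.155 in IR.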

How the data were processed

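Members and gene lists were chosen with earlier results of these data known. The authors mapped SORT-seq reads to GRCh38 with STARsolo, without intronic reads, reads shared between genes or a UMI minimum; the submitters' notes also name Seurat 5. How strand was handled is not stated there. The deposited values are expected counts, observed UMIs corrected for 4096 possible UMI sequences (99.9% of the values of each library lie on that correction), not the plain counts the design had assumed. They were summed per library, rounded and tested by the quasi-likelihood method of edgeR 4.0.16 under R 4.3.3 (robust, TMM factors, low genes dropped by filterByExpr, Benjamini-Hochberg over 14647 genes), which all 311 members entered. Spike-ins were left out. The p-values measure the spread between 2 libraries per group, which the study calls independent. The titles mark a shared experiment, and deviations of same-numbered libraries correlated at 0.635, so the experiment pairs them. Biological coefficients of variation were 0.177 without and 0.0727 with the block. Tested on simulated counts for IR against UT (14387 genes), 52% of 2-fold and 99% of 4-fold changes were found without the block, and with it, under its own simulated settings (14374 genes), 92% and 100%. DESeq2 1.42.0 was an alternative. Positions came from GENCODE 44 by gene identifier (310 of 311 members) and promoters from RefSeq. Genes were named by rule: the 4 named outright, up to 10 called members per direction and fit averaging 5 CPM or more and moving 1 way, the 10 most abundant, the 5 highest and 5 lowest correlations, up to 8 pairs, the neighbours of the count minimum and up to 4 genes of each list.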

Additional observations from a re-analysis of the deposited data

How the results depend on the processing

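The count of members called depended most on the block. Counted as planned, over all 308 members chosen by symbol, there were 11 rises and 2 falls; the counts over 307 and 277 members, chosen after seeing the data, were within 1.5 times of both. Against these, the block gave 56 and 25, no filter on low counts 32 and 8, and DESeq2 with the block, added after seeing the data, 18 and 4. The block also raised the calls over all genes tested, to 14.3% rises and 12.9% falls from 1.63% and 0.847% without it. Shares of all genes under the other settings are not given here, so those counts are not a result about the members. Drawing equal cells per library gave 12 rises and 1 fall. RLE size factors, recovered observed UMIs, leaving out genes near the count ceiling, DESeq2 without the block and member minima of 50 or 200 counts stayed within 1.5 times of both counts. Leaving out 1 library gave 4 to 9 rises and 0 falls, lowest without IR experiment 1. No named member changed sign where it was called. The share of cells with LINC00520 moved with depth: unthinned it was 38.5% and 41.9% in IR and 3.35% and 4.36% in UT, thinned to 4000 UMIs it was 17.1% and 18.2% in IR and 1.96% and 0.817% in UT, and at 3 or more UMIs without thinning 17.8% and 18.5% in IR and 1.12% and 0.545% in UT. How recovery of a change depends on a member's level was not tested; 221 members were below 20 CPM.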

Other observations

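GRM5-AS1 and LINC02334 were seen in 1 experiment only or nearly so. GRM5-AS1 had 144 counts in IR and 80 in UT in experiment 2 and 0 in both libraries of experiment 1, so its call with the block (adjusted p = 0.0105 by edgeR) rests on experiment 2 alone. In experiment 2 GRM5-AS1 was present in 35.5% of IR and 18.3% of UT cells without thinning. LINC02334 had 138 counts in IR and 248 in UT in experiment 1 but 12 and 0 in experiment 2. LINC00685 had 90 counts in IR and 83 in UT in experiment 1 and 25 and 20 in experiment 2. These 3 of 311 members (0.965%) differed over 4-fold between the experiments, as did 50 of 12441 genes with at least 100 counts (0.402%). The difference between the experiments is not part of the study's comparison and its source was not tested.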
